A study of Mus musculus with 9 samples.

Results

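Fcrlb, Trim45, Rprm, Defb25, Vinac1 and Gm4825 are 6 mouse genes that are seldom named among hair cell genes and whose RNA was far lower in cochleae without a normal Pou4f3 allele. They were picked by name out of 51912 genes, and found by Ensembl identifier, for large or very even differences between the homozygous mutant libraries and both other groups, so those differences describe the choice and are given without a test. Expression was measured by RNA-seq in 9 libraries of mouse cochlea at postnatal day 3, with 3 libraries in each of 3 groups. WT stands for Pou4f3(+/+), HET for Pou4f3(Δ/+) and HOM for Pou4f3(Δ/Δ). The sources used here do not give the extent of the Δ allele, the strain or the number of animals in a library. The genotype field of each sample names another genotype than its title. Groups follow the titles, and every direction below depends on that.

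POU4F3 is a POU-homeodomain transcription factor that is found in the inner ear in hair cells, the sensory cells that turn sound into nerve signals. Hair cells form without it but do not mature properly and are lost, and mutations of the gene cause progressive deafness in people. Hair cells are a small part of the cochlea, so in whole tissue the RNA of a hair cell gene is diluted by that of supporting cells, neurons, glia and mesenchyme. In such samples fewer cells of a type and less RNA per cell cannot be told apart. Pou4f3 RNA itself was at 25.02, 24.49 and 26.97 FPKM in WT and at 24.21, 21.74 and 25.56 in HET. HOM 1 to 3 had 5.92, 1.36 and 9.39 FPKM (fragments per kilobase of transcript, scaled to library depth). The HOM libraries thus held unequal amounts of it, least in HOM 2 and most in HOM 3.

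The 6 genes are of unrelated kinds. Fcrlb encodes an intracellular protein of the Fc receptor-like family, a family best known from B cells. Defb25 encodes a beta-defensin, a small cationic peptide of a family with antimicrobial activity that in mice is largely found in the male reproductive tract. Trim45 encodes a RING-type ubiquitin ligase of the tripartite motif family. Rprm encodes Reprimo, a p53-induced protein linked to cell cycle arrest. Vinac1 is named for its place in the vinculin and alpha-catenin family, whose members tie actin filaments to cell junctions. Gm4825 is annotated as a processed pseudogene, an intronless copy of the RNA of another gene.

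Coordinates are those of GENCODE M21 on GRCm38, and no annotated gene overlaps any of the 6. Fcrlb (ENSMUSG00000070524) lies on chromosome 1 from 170907273 to 170912941 on the - strand, with 1284 bp of exon in 6 blocks. Trim45 (ENSMUSG00000033233) lies on chromosome 3 from 100922202 to 100936920 on the + strand, with 6000 bp of exon. Chromosome 2 holds Rprm (ENSMUSG00000075334, 54084093 to 54085552, a single exon of 1460 bp), Vinac1 (ENSMUSG00000079051, 129025073 to 129048172, 4242 bp of exon) and Defb25 (ENSMUSG00000074678, 152622356 to 152623053, 293 bp of exon), all on the - strand. Gm4825 (ENSMUSG00000063548) is a single exon of 408 bp on chromosome 15, from 85510812 to 85511219 on the + strand.

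The sequence of Gm4825 is shown because it decides how far its value can be read. Over its 408 bases it matched the coding sequence of Rpl27, a gene for a protein of the large ribosomal subunit, at 92.6% identity without a gap, with 30 bases that differed. Rpl27 lies on chromosome 11 from 101442298 to 101445529 on the + strand. The first 300 bases of both, 5′ to 3′ from the GENCODE transcripts, hold 24 of the differing bases, in capitals.
Gm4825: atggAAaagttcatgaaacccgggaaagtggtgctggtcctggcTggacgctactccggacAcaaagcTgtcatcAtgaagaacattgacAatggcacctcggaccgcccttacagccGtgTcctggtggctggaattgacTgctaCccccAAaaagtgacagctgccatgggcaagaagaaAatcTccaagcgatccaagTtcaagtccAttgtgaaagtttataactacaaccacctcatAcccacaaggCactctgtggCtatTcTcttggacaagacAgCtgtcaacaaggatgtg
Rpl27: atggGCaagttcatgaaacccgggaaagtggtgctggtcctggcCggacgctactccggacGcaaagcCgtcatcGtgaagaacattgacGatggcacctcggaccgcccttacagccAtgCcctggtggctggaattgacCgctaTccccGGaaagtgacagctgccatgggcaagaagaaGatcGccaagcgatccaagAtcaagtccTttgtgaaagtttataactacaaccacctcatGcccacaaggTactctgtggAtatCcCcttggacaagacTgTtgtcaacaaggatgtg
The longest stretch without a difference was 38 bases, and neither sequence had a stop codon in frame. In all, 17 other genes matched Gm4825, 15 of them over at least 90% of its length at 80% identity or more, whereas the 5 coding genes had 0 such matches each at the same search setting. The sources used here do not say how fragments that match several places were treated, so the value of Gm4825 is uncertain in a way that those of the other 5 are not.

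Fcrlb had by far the highest level of the 6, at 260.35, 227.77 and 210.31 FPKM in WT and 224.73, 261.77 and 258.94 in HET. Its WT mean of 233 ± 25.4 FPKM (SD, n = 3) ranked 111 among the 51912 genes. In HOM it was at 12.47, 1.02 and 17.95 FPKM. All HOM libraries lay far below the others, and HOM 2 far below the other two. The share of the WT mean kept was 5.36% in HOM 1, 0.438% in HOM 2 and 7.71% in HOM 3, or 4.50% ± 3.71 (SD, n = 3), and 4.22% ± 3.48 of the HET mean. Without HOM 3 the share of WT was 2.90%. The change was -4.86 against WT (SE 0.81) and -4.96 against HET (SE 0.80) on the log2(FPKM + 1) scale, which is used for all changes below and understates those of genes with low levels.

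Trim45 was at 14.28, 14.70 and 15.18 FPKM in WT and 15.21, 13.15 and 14.11 in HET. In HOM it was at 2.57, 2.65 and 3.11 FPKM. The 3 HOM values lay close together and far below the other 6. HOM kept 17.5%, 18.0% and 21.1% of the WT mean, on average 18.9% ± 1.98 (SD, n = 3). The change was -2.06 (SE 0.07) against WT and -2.01 (SE 0.08) against HET.

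Rprm was the most even of the 6 in HOM and kept the largest share. Its levels were 71.91, 77.40 and 84.31 FPKM in WT, 87.01, 79.93 and 77.10 in HET, and 26.47, 29.30 and 28.71 in HOM. HOM kept on average 36.2% ± 1.92 of the WT mean (SD, n = 3), with 37.6% in HOM 2 and 36.9% in HOM 3. The change was -1.43 (SE 0.07) against WT and -1.50 (SE 0.06) against HET. With its HOM mean of 28.2 ± 1.49 FPKM, Rprm was the highest of the 6 in HOM, ahead of Fcrlb.

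Defb25 was at 6.62, 8.67 and 8.57 FPKM in WT, 6.90, 4.12 and 4.61 in HET, and 0.72, 0.45 and 0.65 in HOM. HOM kept 9.05%, 5.66% and 8.17% of the WT mean (7.63% ± 1.76, SD, n = 3) and 11.6% ± 2.69 of the lower HET mean. These values rest on few fragments, because the transcript is short. The numbers of fragments, recovered from the FPKM values, the exon length and the depth, were 33, 37 and 38 in WT, 33, 21 and 21 in HET, but 3, 2 and 3 in HOM. The 8 fragments of HOM against 108 of WT give a share of 7.64%, with an exact 95% counting interval of 3.21% to 15.6%. Intervals of this kind cover counting error only.

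Vinac1 was at 3.92, 3.95 and 2.85 FPKM in WT, 2.87, 3.72 and 3.91 in HET, and 0.38, 0.19 and 0.22 in HOM. HOM kept 10.6%, 5.32% and 6.16% of the WT mean, on average 7.37% ± 2.86 (SD, n = 3). In fragments, HOM had 23, 12 and 15, against 183 to 283 in WT and 199 to 275 in HET. From these fragments the share of WT was 7.26%, with a counting interval of 5.34% to 9.68%.

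Gm4825 was at 7.92, 8.58 and 9.40 FPKM in WT, 6.61, 6.62 and 5.20 in HET, and 0.51 and 0.16 in HOM 1 and HOM 3, and it was listed at 0 in HOM 2. These are 164 fragments in WT, 124 in HET and 4 in HOM, of which 3 were in HOM 1. The share of WT from these fragments was 2.51%, with a counting interval of 0.677% to 6.56%. The 0 of HOM 2 stands for 0 fragments, which allows an expected count of up to 3, or 0.482 FPKM. The mean of the 3 HOM shares was 2.59% of WT, and 0.927% without HOM 1. Of the matching genes, Rpl27 was at 18.6 ± 1.46 FPKM in WT and 16.0 ± 3.48 in HET (SD, n = 3 each), and the copy Gm11518 at 10.4 ± 2.46 and 10.1 ± 2.33. None of the 17 (0) is listed in HOM, so whether fragments of these copies were lower there too was not analysed here.

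**Figure D1:**
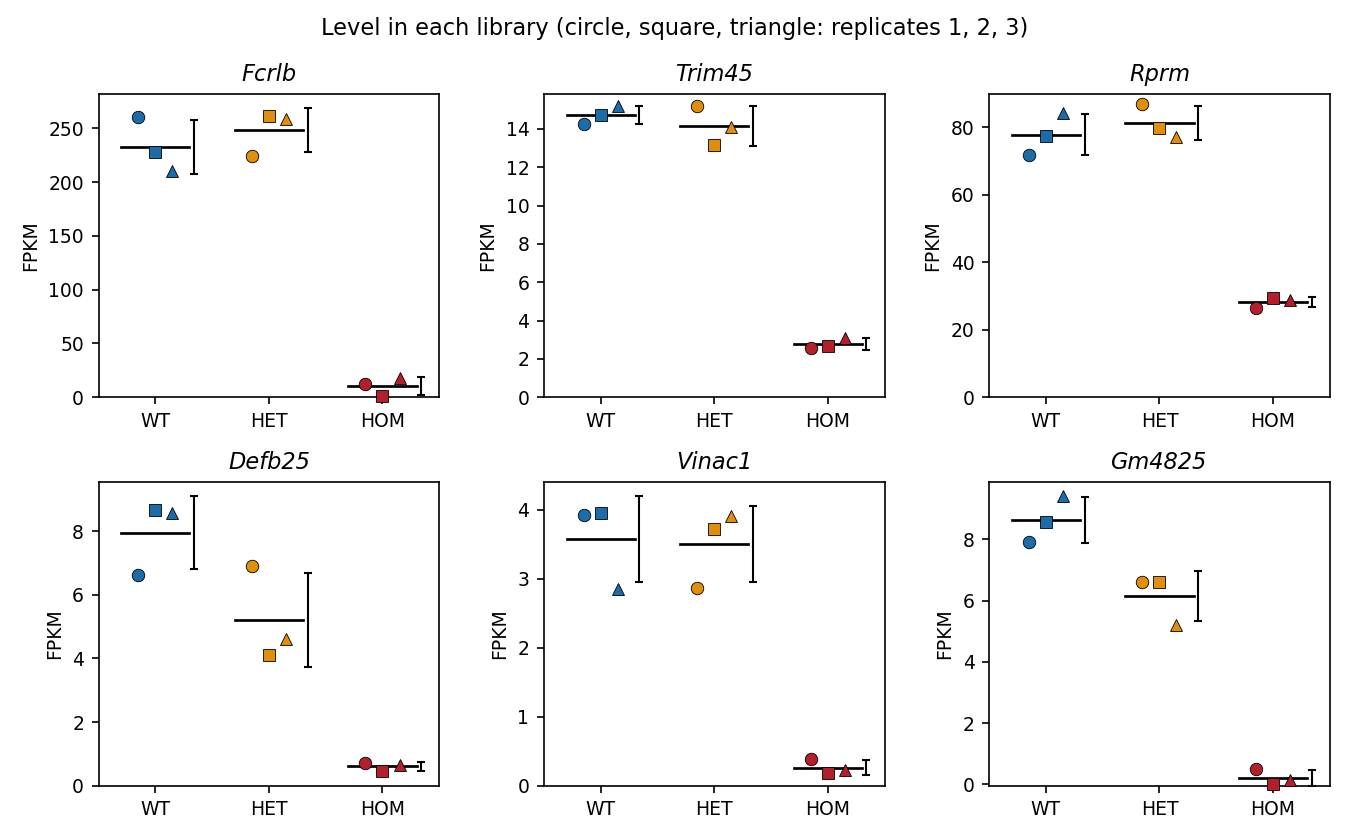
Level of each gene in FPKM (y axis, linear from about 0, its own scale in each panel) in the 3 groups (x axis). Symbols are libraries, horizontal lines group means and vertical bars SD (n = 3). In all 6 panels the HOM libraries lie below the WT and HET libraries, and WT and HET overlap in each panel but that of Gm4825.

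In all 6 genes each HOM library lay below each WT and HET library, which is what they were picked for. The same held for 69.1% of the 1109 tested genes listed in HOM when compared with WT and for 46.2% of 1090 when compared with HET. By limma's adjusted p, 93.1% and 44.5% of these genes were called in either direction. Nothing is read from the members' count. The HOM files hold values for 7.5% of the 15150 genes whose WT mean reached 1 FPKM, and the sources used here do not say how those genes were chosen. The HOM files list 1137 genes, each with a mean WT level of at least 1 FPKM. Ranked from the lowest share kept, Gm4825 stood at place 14, Fcrlb at 20, Vinac1 at 29, Defb25 at 30, Trim45 at 60 and Rprm at 144. Among them Fcrlb and Rprm had the largest loss in absolute level, from 233 to 10.5 FPKM and from 77.9 to 28.2.

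The order of the 6 levels differed between the groups. In WT it was Fcrlb, Rprm, Trim45, Gm4825, Defb25 and Vinac1, and the libraries of Gm4825 (7.92 to 9.40 FPKM) and Defb25 (6.62 to 8.67) overlapped. In HET those 2 overlapped too. In HOM the order of the means was Rprm, Fcrlb, Trim45, Defb25, Vinac1 and Gm4825, and the libraries of Vinac1 and Gm4825 overlapped. Fcrlb lay above Trim45 in HOM 1 and HOM 3 and below it in HOM 2 (1.02 against 2.65 FPKM).

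The hair cell markers gave a scale for these shares. Of 24 marker genes, 20 are listed in HOM, and they kept between 2.20% (Otof, the calcium sensor of transmitter release) and 68.1% (Myo6, an unconventional myosin) of the WT mean, with a median of 17.7%. The other 4 markers have no value in HOM and were not analysed there. Gm4825, Fcrlb, Vinac1 and Defb25 lay in the lower part of it, among Otof, Loxhd1 (3.64%) and Tmc1 (7.03%), which serve the synapse and the mechanosensitive bundle. Trim45 lay near the median, and Rprm above it, beside the small muscle protein gene Smpx (34.9%).

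**Figure D2:**
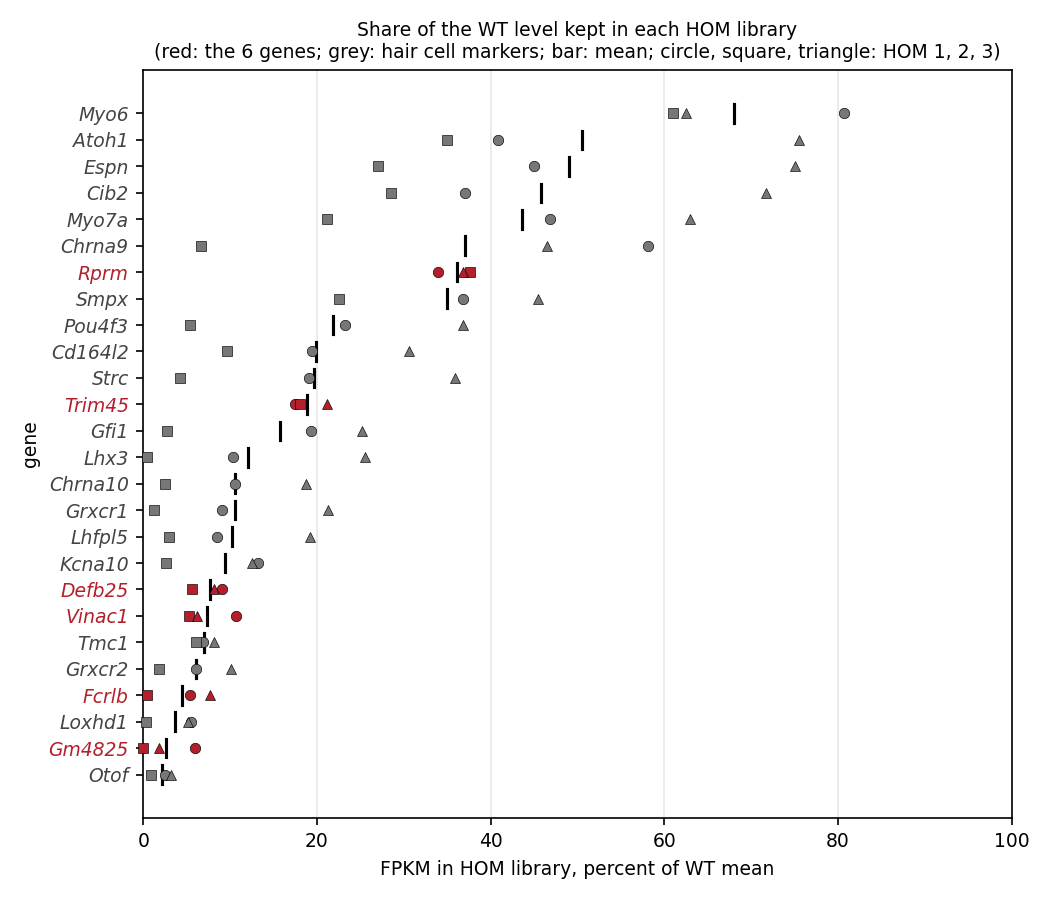
Level in each HOM library as percent of the WT mean (x axis) for the 6 genes (red) and the 20 listed hair cell markers (grey), ordered by their mean (vertical bar). Symbols are HOM libraries. Trim45 and Rprm have 3 close symbols, whereas most markers spread widely, with HOM 2 lowest in all 20.

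The 6 genes fell into different patterns within HOM. In 20 of 20 listed hair cell markers HOM 2 had the lowest level, and in 16 HOM 3 had the highest. How many of all 1137 listed genes had this order was not counted, so it is not shown to be particular to hair cell markers. Fcrlb had this order, with a level 17.6 times as high in HOM 3 as in HOM 2. The same ratio was 6.90 for Pou4f3 and 9.10 for Gfi1, which encodes a zinc finger repressor of hair cells, and its median over the 20 markers was 5.21. Defb25, Vinac1 and Gm4825 were lowest in HOM 2 as well but highest in HOM 1, on 0 to 23 fragments a library. Defb25 had 3 fragments in both HOM 1 and HOM 3, so the order of those libraries rests on depth alone. Trim45 and Rprm departed from the order on many fragments: Trim45 had 221, 243 and 294 fragments in HOM 1 to 3 and Rprm 553, 653 and 661. For Trim45 the ratio of HOM 3 to HOM 2 was 1.17, and for Rprm it was 0.980, with HOM 1 lowest in both. The spread over HOM, as a coefficient of variation, was 82.4% for Fcrlb, 10.5% for Trim45 and 5.30% for Rprm, against 10.9%, 3.06% and 7.98% in WT. Of the 20 markers only Myo6 (1.02) had a ratio under that of Trim45, and none (0) had one under that of Rprm. Ratios near 1 were not particular to these genes. Among the genes most like Rprm, given below, the ratio was 0.941 for Eno4, 1.03 for Ccdc181 and 1.15 for Gm40841, but 1.78 for Chrna1. Very even differences were among the grounds for picking the genes, so the close HOM values of Trim45 and Rprm in part describe that choice. None of these patterns was tested.

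**Figure D3:**
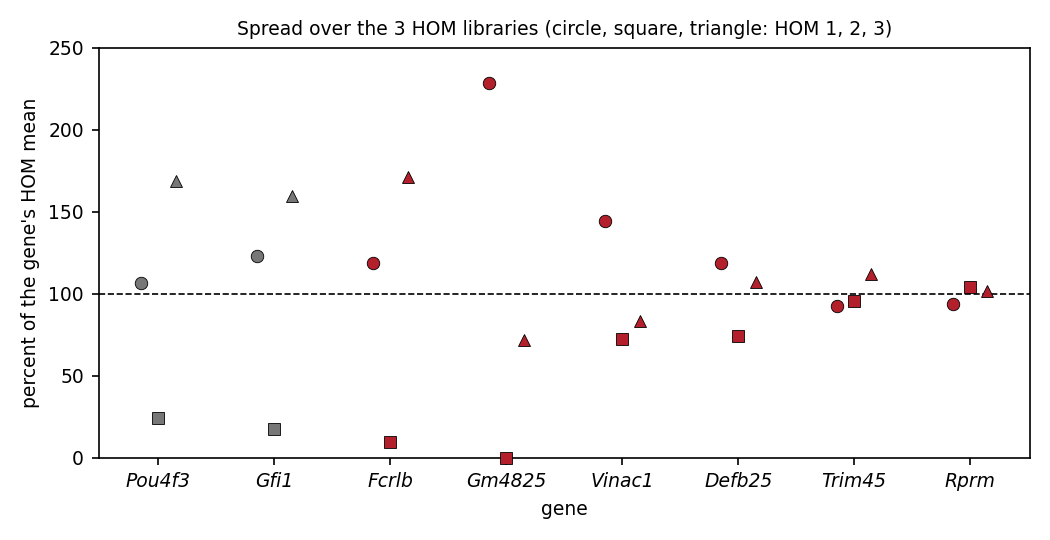
Level in each HOM library as percent of the mean of the 3 HOM libraries (y axis) for Pou4f3 and Gfi1 (grey) and the 6 genes (red). The symbols of HOM 2 lie far below those of HOM 3 for Pou4f3, Gfi1 and Fcrlb, and all 3 lie near 100 for Trim45 and Rprm.

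The difference between HET and WT was not itself used to pick the genes and could be tested. The levels of both groups did enter the choice, so the test is not fully independent of it. In 4 of the 6 the change was smaller than its SE. Fcrlb was at 248 ± 20.6 FPKM in HET, 106.7% of the WT mean (change +0.10, SE 0.12), Rprm at 81.3 ± 5.10, 104.5% (+0.06, SE 0.09), Trim45 at 14.2 ± 1.03, 96.2% (-0.05, SE 0.08), and Vinac1 at 3.50 ± 0.554, 97.9% (-0.02, SE 0.15; n = 3 each). In these 4 the WT and HET libraries overlapped.

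Defb25 and Gm4825 had the lowest HET levels relative to WT. Gm4825 was at 6.14 ± 0.817 FPKM in HET against 8.63 ± 0.741 in WT (n = 3 each), 71.2% of the WT mean, and its HET libraries all lay below its WT libraries. Its change was -0.44 (SE 0.11, limma unadjusted p = 0.00736, adjusted p = 1.00). Defb25 was at 5.21 ± 1.48 FPKM in HET against 7.95 ± 1.16 in WT, 65.5% of the WT mean, with a change of -0.55 (SE 0.19, limma unadjusted p = 0.0236, adjusted p = 1.00). HET 1, at 6.90 FPKM, lay above WT 1, at 6.62, so the groups overlapped. In fragments the HET level was 65.8% of WT for Defb25, with a counting interval of 48.4% to 89.2%, and 71.7% for Gm4825, with 56.3% to 91.1%.

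None of the 6 genes (0) passed limma's threshold of an adjusted p of 0.05 in HET against WT. The background was 0% of 15391 tested genes, and 266 of them (1.73%) had an unadjusted p under 0.05. Groups that did not overlap, with HET lower, were found in 1 of the 6 genes and in 3.12% of all tested genes. The two-sided exact permutation p over 3 against 3 libraries was 0.1 for Gm4825, the smallest this design allows, 0.2 for Defb25, 0.5 for Trim45 and Rprm, 0.6 for Fcrlb and 0.7 for Vinac1.

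**Figure D4:**
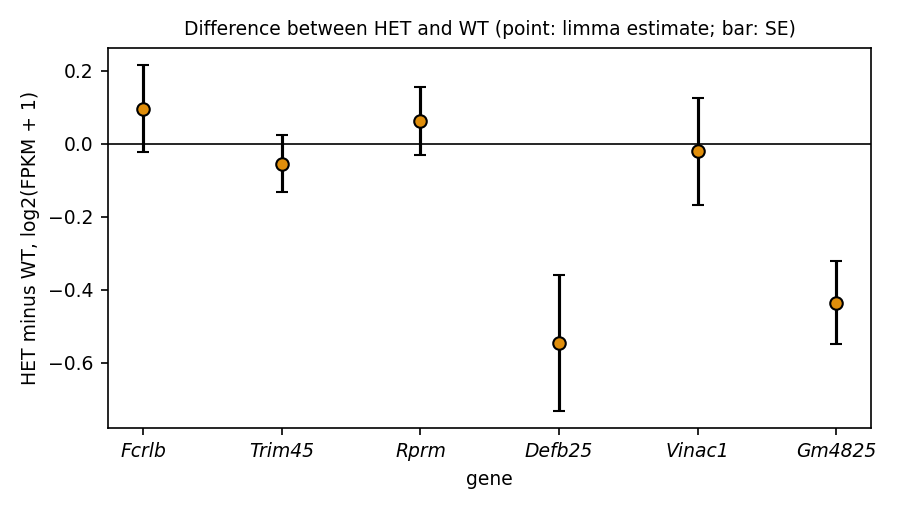
Difference between HET and WT on the log2(FPKM + 1) scale (y axis) for the 6 genes (x axis), with points for limma's estimates and bars for the SE (n = 3 libraries per group). Defb25 (-0.55) and Gm4825 (-0.44) lie below 0, and the other 4 lie within 1 SE of 0.

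Among WT and HET, libraries WT 3 and HET 1 stood out by their marker sums. The summed level of 8 Schwann and satellite glia markers was 536 FPKM in WT 3 and 582 in HET 1, and 332 to 454 in the other 4. Other cell types shared this. Within each group WT 3 and HET 1 also had the highest sums of supporting cell markers (1359 and 1370 FPKM). The same held for spiral ganglion neuron markers (260 and 250) and macrophage markers (52.7 and 52.5). The B cell sum was highest in HET 1 but not in WT 3 (2.13 FPKM against 2.34 in WT 1). In the same 2 libraries Fcrlb (210.31 and 224.73 FPKM) and Vinac1 (2.85 and 2.87) were at their lowest in WT and HET. Rprm (84.31 and 87.01) and Trim45 (15.18 and 15.21) were at their highest there. The sums of the 24 hair cell markers were highest in these libraries too, at 523 FPKM in WT 3 against 439 and 452 in the other WT libraries, and at 471 in HET 1 against 401 and 412. Fcrlb and Vinac1 were thus lowest where that sum was highest within each group. The sum does not stand for each marker. Myo6 (30.73 and 29.93 FPKM) and Loxhd1 (7.10 and 6.50) were also lowest in WT 3 and HET 1, whereas Cib2 (68.37 and 68.73) was highest. The part of other cell types in these values was not tested.

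Fcrlb was the highest of the Fc receptor family in WT. Of the 16 other members measured, 4 reached a WT mean of 1 FPKM and 0 are listed in HOM, which at a listed share of 7.5% says nothing about the family. The next highest was Fcgrt, the neonatal Fc receptor gene, at 48.6 ± 3.33 FPKM, followed by Fcrls at 4.41 ± 0.799 and Fcer1g, the shared signalling chain, at 3.23 ± 1.03 (SD, n = 3). Its neighbours in the genome were far lower in WT than Fcrlb itself. Fcrla, 4635 bp away, was at 0.03 FPKM in WT 1 and at 0 in WT 2 and WT 3, and Fcgr2b, 45676 bp away, at 0.273. On the other side Gm26620, 21392 bp away, was at 0.500 and Dusp12, 21733 bp away, at 5.64 FPKM. The 10 B cell markers summed to between 1.83 and 2.34 FPKM in WT and between 1.74 and 2.96 in HET, with Blnk the highest at a WT mean of 0.763. The 10 macrophage markers summed to 42.6 to 52.7 FPKM in WT and 37.8 to 52.5 in HET. The 1 listed in HOM, Cd68, was at 6.26 to 7.40 FPKM there, against 4.72 to 5.78 in WT and 3.99 to 6.63 in HET. It was called higher against WT (limma adjusted p = 0.0211) but overlapped HET and did not pass against it (limma adjusted p = 0.130). Of the listed genes tested, 27.7% were called higher against WT and 8.17% against HET. The other 9 macrophage markers are not listed in HOM, and the part of immune cells in the level of Fcrlb was not tested.

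Defb25 was the only beta-defensin gene whose WT mean reached 1 FPKM. Of 42 other beta-defensin genes, 32 were listed at 0 in all WT and HET libraries, and the highest, Defb48, was at 0.653 ± 0.436 FPKM in WT. Its neighbours Defb36 and Defb45, 9627 and 22957 bp away, were at 0.0467 and 0.0333 FPKM. On its other side, 3898 bp away, Rem1, a gene for a small GTPase of the RGK family, was at 2.48, 2.71 and 2.82 FPKM in WT, 2.10, 2.48 and 2.68 in HET, and 1.43, 0.88 and 1.71 in HOM. Rem1 kept 50.2% ± 15.8 of its WT mean and fell in HOM against WT (-0.66, SE 0.14, limma adjusted p = 0.00956) and against HET (-0.56, adjusted p = 0.0280). Such calls were common, since 65.4% of the listed genes tested were called lower against WT and 36.3% against HET. The call against HET was lost without HET 2, HET 3 or HOM 1 and under upper-quartile scaling (adjusted p from 0.0550 to 0.0970). The next gene, H13, did not pass against either group (+0.06, adjusted p = 0.129, and +0.12, adjusted p = 0.0539), but was called higher against both under both scalings (+0.26 to +0.36).

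In the Trim family 1 other gene, Trim36, was far lower in HOM. Of 68 other members 34 were tested in HET against WT and 3 are listed in HOM, a share near that of all genes at 1 FPKM or more. Trim36, another ubiquitin ligase gene, was at 13.84, 14.13 and 13.93 FPKM in WT, 14.65, 16.33 and 15.35 in HET, and 3.79, 2.19 and 3.77 in HOM. It kept 23.3% ± 6.57 of the WT mean and fell against WT (-1.84, SE 0.16, limma adjusted p = 0.000616) and HET (-1.98, SE 0.17, adjusted p = 0.000544), and it passed under each alternative run. Trim36 lies on chromosome 18 from 46165300 to 46212607, the chromosome that also holds Pou4f3 (42394539 to 42397249). A part of the DNA around the Δ allele in its fall was not tested. Trim23 (+0.22, adjusted p = 0.0264) and Trim35 (+0.11, adjusted p = 0.0243) rose against WT and did not pass against HET, though they did under both scalings. Against WT the call of Trim23 was lost without any single library but HOM 3, and that of Trim35 without any but WT 2 (adjusted p up to 0.0807). These adjusted p values are over listed genes, of which 65.4% were called lower and 27.7% higher against WT, and 36.3% lower and 8.17% higher against HET. The other 65 members are not listed in HOM, and in HET against WT 0 of 34 tested passed.

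Relatives of Rprm and Vinac1 were listed in HOM about as seldom as all genes at such levels (7.5%). Of 20 other genes of p53-linked arrest and the Reprimo family, 17 reached a WT mean of 1 FPKM and 1 is listed in HOM. This was Zmat3, an RNA-binding p53 target, at 5.83 ± 0.227 FPKM in WT and 4.70 ± 0.486 in HOM (n = 3 each). It fell against WT (-0.27, limma adjusted p = 0.0196), as did 65.4% of the listed genes tested, and did not pass against HET (-0.29, adjusted p = 0.0717). The call against WT was lost under both scalings and without WT 1 or WT 2. In HET against WT 0 of 17 passed. Of the 5 relatives of Vinac1 none (0) is listed in HOM, and the most abundant were Ctnna1, Ctnnal1 and Vcl, the genes for alpha-E-catenin, an alpha-catenin-like protein and vinculin, at 90.5 ± 3.45, 14.9 ± 1.21 and 12.3 ± 2.54 FPKM in WT, where Vinac1 was at 3.57.

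Of the 24 protein-coding neighbours of the 6 genes, 2 on each side, 13 reached a WT mean of 1 FPKM, and of these Rem1 and H13 are listed in HOM. Ttf2, 1940 bp from Trim45, was at 3.29 FPKM in WT and 3.36 in HET. Zc3h6, 6510 bp from Vinac1, was at 4.10 and 4.16 FPKM. Atxn10 and Wnt7b, on the sides of Gm4825, were at 86.4 and 23.5 FPKM in WT. Rprm lay in a gene-poor stretch, with Galnt13 350765 bp and Arl6ip6 864873 bp away.

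The genes most like each of the 6 were named by Pearson r of log2(FPKM + 1) over the 9 libraries, among the other 1136 listed genes. The measure is set mostly by the gap between HOM and the rest, so it is a description with no test. For Fcrlb they were Gfi1 (r = 0.999), Klhdc7b, Gas6, Espnl and Strc, of which Espnl and Strc encode proteins of the hair bundle. For Trim45 they were Chrna1 (r = 0.997), a muscle-type acetylcholine receptor subunit gene, Ccdc181, Otof, Rprm and Tunar. For Rprm they were Chrna1 (r = 0.997), Trim45, Ccdc181, Eno4 and Gm40841, so Trim45 and Rprm named each other. Defb25 was most like Fam217b (r = 0.989) and had Gm4825 (r = 0.984) among its 5. Gm4825 was most like Fam217b too (r = 0.995), and Vinac1 was most like Tunar (r = 0.996), Pkhd1l1 and Lmod3. In HOM 1 to 3 Gfi1 was at 1.47, 0.21 and 1.91 FPKM, with the low HOM 2 of Fcrlb, and Ccdc181 at 9.48, 9.59 and 9.88, nearer to each other than those of Trim45.

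The stretches before the start sites of Fcrlb and Rprm are shown because these 2 genes had the highest levels and different patterns within HOM. The RefSeq table for GRCm38.p6 holds promoters for 4 of the 6 genes, without Defb25 and Gm4825. The windows of Trim45 and Vinac1 overlap GENCODE exons, that of Vinac1 at the start of its neighbour Ttl and outside the Vinac1 gene given above, so they are not described. The 250 bases before the start are printed 5′ to 3′ on the strand of the gene (chr1:170912942-170913191, - strand, and chr2:54085553-54085802, - strand), with each CG pair in capitals.
Fcrlb: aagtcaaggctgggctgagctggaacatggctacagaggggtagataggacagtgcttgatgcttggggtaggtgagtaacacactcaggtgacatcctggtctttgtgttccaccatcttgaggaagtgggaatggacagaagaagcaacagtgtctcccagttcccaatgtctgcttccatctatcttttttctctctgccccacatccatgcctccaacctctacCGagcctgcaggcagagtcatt
Rprm: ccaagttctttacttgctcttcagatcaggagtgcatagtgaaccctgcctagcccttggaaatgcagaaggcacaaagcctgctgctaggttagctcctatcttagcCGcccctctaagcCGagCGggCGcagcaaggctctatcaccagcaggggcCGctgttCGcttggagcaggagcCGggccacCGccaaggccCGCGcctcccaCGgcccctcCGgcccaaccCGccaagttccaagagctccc
Fcrlb had 1 CG pair in this stretch and Rprm 13, against a median of 6 over 32851 promoters. Only 7.87% of promoters had fewer than Fcrlb, and 68.5% had fewer than Rprm. The share of G and C was 51.2% in Fcrlb and 62.4% in Rprm.

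In both genes short motifs were searched on both strands from 250 bases before to 50 after the start. They were TAATTAAT and its part ATTAAT, of POU4 factors, the octamer ATGCAAAT of POU factors in general, the E-boxes CAGCTG and CAGATG, the X-box of RFX factors and the TATA box TATAAA. In both windows the count of each was 0. Over 32851 promoters the share with a match was 0.852% for TAATTAAT, 4.75% for ATTAAT, 1.74% for ATGCAAAT, 16.3% for CAGCTG, 17.2% for CAGATG, 0.128% for the X-box and 13.6% for TATAAA. These letters are absent from these windows only, and nothing follows for sites elsewhere.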

How the data were processed

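RNA-seq of 9 cochlear libraries was analysed. The authors deposited FPKM values per gene and library, rounded to 2 decimals, per the file headers. The submitters' processing notes name mm8 and DESeq2, with no role. The sources used here give no aligner, counter or annotation, and coordinates in the text are GRCm38. The labels' protocols name both isolation by poly(A) and removal of rRNA, as alternatives. WT and HET files list 51912 genes and HOM files 1137, and 51633 identifiers matched a symbol. Depth was recovered as the step that made low values of genes with up to 600 bp of exon whole fragments (99.3% to 100% within 0.1). It was 14.3 to 17.4 (in 1e6 fragments), resting on 23 to 29 values in each HOM library. Since the step was chosen to give whole values, that share is not independent evidence.

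The members and lists were chosen with earlier results of these data known. Groups were compared with limma 3.58.1 (R 4.3.3) on log2(FPKM + 1) with a mean-variance trend, for genes that reached 1 FPKM in 3 or more of the 6 libraries compared, with Benjamini-Hochberg adjustment over all genes tested. HOM fits cover listed genes only. Simulated data with known changes tested the fit. Single genes were also compared by exact permutation. Named genes were the 6, Pou4f3, the 5 most alike by r, the nearest 2 coding genes on each side, and the genes of the fixed lists listed in HOM or, with none, the 3 highest. Similar transcripts were searched with megablast. Alternatives were a pseudocount of 0.1, no filter, 2 scalings (with HOM, from listed genes only), no trend, a replicate block and leaving out each library. Nothing in the labels says that libraries came from separate animals, so p values measure the spread between these libraries. Same-numbered libraries did not all deviate together.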

Additional observations from a re-analysis of the deposited data

How the results depend on the processing

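Median-ratio and upper-quartile scaling with HOM used listed genes only. Of those tested, 65.4% were called lower and 27.7% higher against WT before scaling. Both scalings take most of these genes as unchanged, so a shift under them cannot be told apart from the choice of listed genes. The share of WT kept in HOM moved beyond its SD for Trim45, to 22.1% by median-ratio scaling and 22.2% by upper-quartile scaling, and for Rprm, to 42.3% and 42.7%. It did so for Defb25 with HET as the reference (11.6%). Leaving out single WT or HOM libraries gave 2.90% to 6.53% for Fcrlb, 17.7% to 19.6% for Trim45, 34.8% to 37.7% for Rprm, 6.92% to 8.61% for Defb25, 5.74% to 8.40% for Vinac1 and 0.927% to 3.88% for Gm4825, lowest without HOM 1. The difference of Vinac1 between HET and WT changed sign without WT 1 (+0.036 log2, 0.10 FPKM), WT 2 (+0.041, 0.115 FPKM) or HET 1 (+0.084, 0.242 FPKM), and over all single libraries left out it ranged from -0.14 to 0.084 log2 and from -0.435 to 0.242 FPKM. No other change of the 6 genes reversed under the alternatives run. Limma called 0 genes in HET against WT, and 0 to 1 when a library was left out, the 1 without WT 1 and without WT 2 and not among the 6; 0 were called with a replicate block. In HOM against WT 1032 of 1109 were called (307 higher, 725 lower), 655 (352 and 303) and 638 (354 and 284) under median-ratio and upper-quartile scaling, 909 with a replicate block, and 588 to 864 with a library left out, 588, 594 and 672 of them without WT 1, 2 and 3. The median change moved from -0.22 to -0.05 and -0.03 under the scalings. In HOM against HET 485 of 1090 were called (89 and 396), 518 (246 and 272) and 552 (329 and 223) under the scalings, 304 with a replicate block, and 116 to 431 with a library left out, 142 without HET 2 and 116 without HET 3. Same-numbered libraries were not taken as paired, since their deviations did not all correlate above 0.1 (r -0.52, 0.29 and -0.47 for HET and WT, 0.25, 0.094 and 0.28 for HOM and WT, -0.32, 0.089 and -0.16 for HOM and HET). Each HOM library correlated best with the WT library of its number, but WT 2 did so with HOM 1. Ranking by Spearman's rho kept 0 to 2 of the 5 most alike genes, so those names depend on the measure. For Defb25 and Gm4825 the 8 and 4 fragments in HOM set the precision.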
